A study of Macaca fascicularis with 15 samples.

Results

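The 7 cone genes described here were the short-wavelength opsin OPN1SW, the long-wavelength opsin OPN1LW, the cone transducin subunit GNAT2, the cone arrestin ARR3, the cone channel subunits CNGA3 and CNGB3, and the exchanger SLC24A2. They were picked by name as genes of cone light detection, and each was found once in every table, so that 7 of the 12995 genes kept were followed. RNA sequencing had been done on eye tissue of wild-type cynomolgus monkeys (Macaca fascicularis), with no treatment named and no age or sex given. Tables of 11 libraries were used: 2 of the whole eye, 2 of the whole retina, 4 of the central retina, which the table headers call macula, and 3 of the peripheral retina. Each library came from 1 eye. The 4 other records of the series, 2 of eye and 2 of retina, carry the same source names as the whole eyes and whole retinas used. They were not analysed here.

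Cones are the photoreceptors of daylight and colour vision, and in primates they are packed most densely in the fovea at the centre of the macula. An opsin that has caught light activates cone transducin, which switches on a phosphodiesterase that breaks down cyclic GMP. The fall in cyclic GMP closes the cyclic nucleotide-gated channel, the exchanger goes on moving calcium out of the cell, and arrestin ends the activity of the opsin. Rods use a parallel set of proteins, most of them made from separate genes, which allows a cone gene to be set beside its rod counterpart in the same library.

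Values are the authors' normalized signal per gene, with no unit stated, so that levels are compared here between libraries for the same gene and not between genes. Absolute sequencing depth is unknown, and between 171 and 501 of the 12995 genes were listed at 0 in a library. All 7 cone genes were above 0 in all 11 libraries and passed the filter on low values. No label says that the regional libraries are from different animals, so a p-value here reflects the spread among libraries alone, and that spread may be technical. In tissue of mixed cells, fewer cells of a type and less RNA per cell cannot be told apart. The summed values of 7 rod markers ranged from 5206 to 13041 over the 11 libraries, with photoreceptor RNA present in every group. The 2 whole retinas also held RNA of other tissues: the 5 measured of 8 pigment epithelium markers summed to 1915 to 2069 there, against 65.7 to 156 in the central libraries and 351 to 541 in the peripheral ones, and the 8 measured of 9 lens markers summed to 420 to 589, against at most 6.47 in any regional library. The 2 measured of 6 corneal and conjunctival markers summed to 13.3 and 61.4 in the whole retinas, against 2.61 to 12.4 in the regional libraries.

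Central and peripheral retina were compared to see which cone genes differed with position in the retina. Both cone opsins and SLC24A2 were higher in central retina, by between 1.52-fold and 2.06-fold in the ratio of means. GNAT2, ARR3 and CNGA3 had higher means in central retina but did not pass the test, and CNGB3 had its lower mean there, also without passing. Thus 3 of the 7 genes were called higher at an adjusted p under 0.05 (limma), where 12.5% of all 11933 genes tested were, and 0 of 7 were called lower, where 8.76% were. At an unadjusted p under 0.05 the counts were 3 higher and 1 lower, where 18.9% and 16.8% of all genes were, so that 1 lower gene of 7 is near the share over all genes. The libraries of the 2 regions did not overlap for the same 3 genes, while 34.6% of all genes tested had no overlap. The median log2 difference was 0.32 over the 7 genes and -0.01 over all genes tested.

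**Figure D1:**
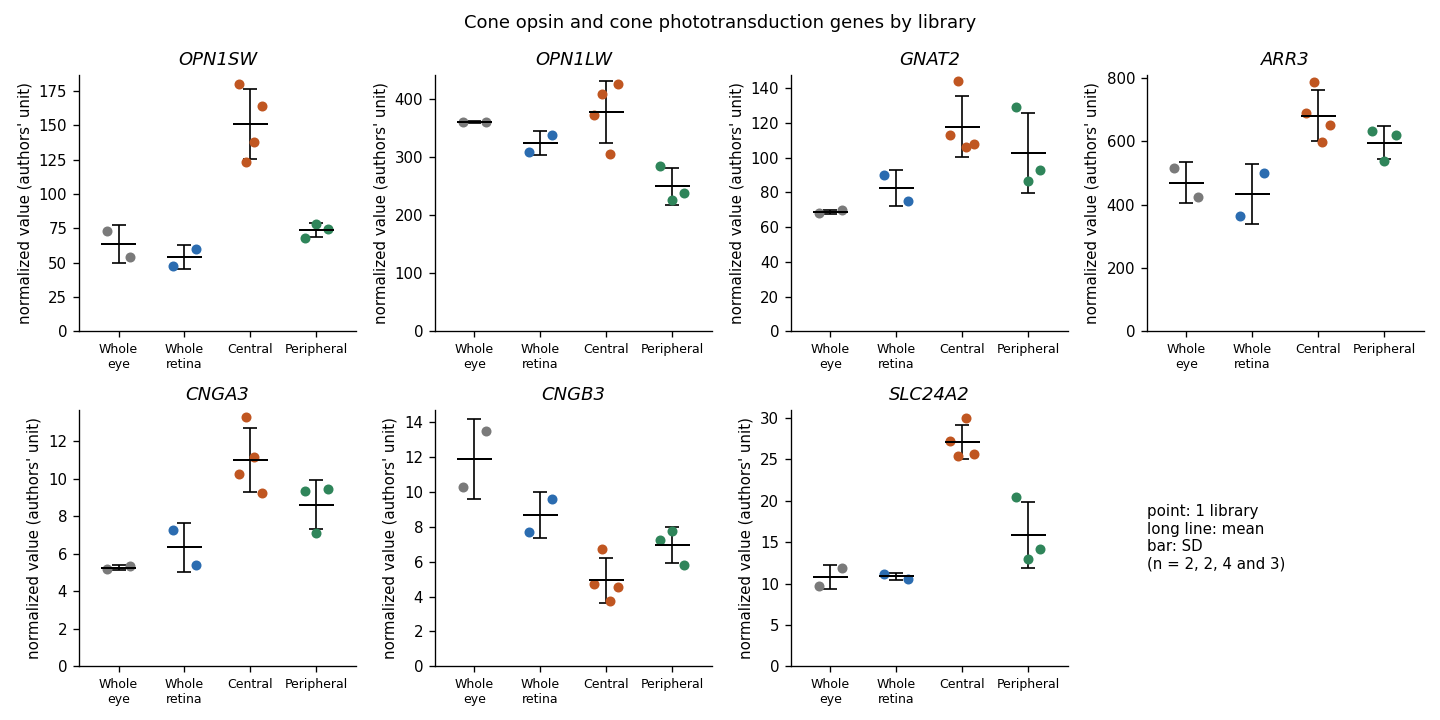
Normalized value of each of the 7 cone genes in each of the 11 libraries, on a linear axis from 0 for each gene, with points for libraries, a long line for the group mean and a bar for the SD. OPN1SW and SLC24A2 have all 4 central libraries above every other library, and CNGB3 has its highest values in the 2 whole eyes.

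OPN1SW, the opsin of the short-wavelength cones that respond to blue light, stood at 180.1, 123, 138 and 164 in the 4 central libraries and at 68.0, 78.2 and 74.6 in the 3 peripheral ones. The 2 whole eyes had 73.5 and 54.1 and the 2 whole retinas 47.8 and 60.3. The lowest central library was therefore above every library of the other 3 groups, which lay close together. The mean of the central libraries was 151 ± 25.6 (SD, n = 4) and that of the peripheral libraries 73.6 ± 5.13 (SD, n = 3), a log2 difference of 1.02 with a standard error of 0.158 (limma, adjusted p = 0.00115). Peripheral retina, whole eye and whole retina followed in that order, and none of these 3 groups differed from another by the test. With other scalings of the libraries peripheral retina passed against whole retina, with log2 differences of 0.67 (quantile normalization) and 0.64 (libraries scaled to 1 median), and under quantile normalization it passed against whole eye, with 0.49 (limma, adjusted p = 0.0497).

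OPN1LW, the opsin of the long-wavelength cones that respond to red light, had a different order. Its values were 371, 408, 306 and 425 in central retina and 285, 225 and 238 in peripheral retina. The 2 whole eyes had 359 and 361 and the 2 whole retinas 309 and 338, inside the range of the central libraries. Central retina had the highest mean, 378 ± 52.9 (SD, n = 4), followed by whole eye at 360.2 ± 1.01 (SD, n = 2), whole retina at 323 ± 20.4 (SD, n = 2) and peripheral retina at 249 ± 31.3 (SD, n = 3). The central mean exceeded the peripheral mean by 0.59 on the log2 scale with a standard error of 0.137 (limma, adjusted p = 0.0116), but without peripheral replicate 2 the adjusted p was 0.0636. The 3 highest groups were not separated by the test, but under quantile normalization central retina passed against whole retina, with a log2 difference of 0.53 (adjusted p = 0.0109), and against whole eye, with 0.46 (adjusted p = 0.0188). The long- and middle-wavelength opsins of primates are nearly identical X-linked genes, and OPN1MW was not analysed here, so reads of these genes may not have been told apart and the OPN1LW values are uncertain as values of 1 gene. Of the cone genes described, OPN1LW alone was among the 242 entries given with more than 2 decimals in every library, for a reason not stated.

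GNAT2, the alpha subunit of cone transducin that carries the signal from the opsin to the phosphodiesterase, had 113, 144, 106 and 108 in central retina. Its peripheral values were 129, 86.4 and 92.7, so that peripheral replicate 1 lay above 3 of the 4 central libraries. The whole eyes had 68.2 and 69.7 and the whole retinas 90.0 and 75.1. Means ran from 118 ± 17.6 (SD, n = 4) in central retina through 103 ± 23.1 (SD, n = 3) in peripheral retina and 82.6 in whole retina to 69.0 in whole eye. The difference of the regions was 0.21 on the log2 scale, with a 95% interval from -0.14 to 0.55 (limma, adjusted p = 0.374).

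ARR3, the arrestin that binds light-activated cone opsin and ends its signal, stood at 688, 787, 598 and 651 in central retina and at 631, 536 and 619.9 in peripheral retina. The whole eyes had 514 and 423, and the whole retinas 365 and 499. Every regional library was above all 4 whole-tissue libraries, while the regions overlapped each other. The means were 681 ± 79.7 (SD, n = 4) and 596 ± 51.7 (SD, n = 3), a log2 difference of 0.19 with a 95% interval from -0.14 to 0.52 (limma, adjusted p = 0.400). Thus 2 cone genes of opsin signalling, GNAT2 and ARR3, were not called between the regions, while both opsins were. Their 95% intervals overlapped that of OPN1LW, from 0.29 to 0.90, but not that of OPN1SW, from 0.67 to 1.36. Differences between these genes were not tested.

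CNGA3 and CNGB3 encode the 2 kinds of subunit that together form the cyclic nucleotide-gated channel of cones, and their values went in opposite directions over the groups. CNGA3, the subunit able to form a channel by itself, had 10.3, 13.3, 11.2 and 9.24 in central retina and 9.34, 7.09 and 9.43 in peripheral retina. It had 5.16 and 5.35 in the whole eyes and 7.25 and 5.42 in the whole retinas. Its lowest central library lay just under the 2 higher peripheral ones. The log2 difference between regions was 0.32, with a 95% interval from -0.01 to 0.65 (limma, adjusted p = 0.154).

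CNGB3, the modulatory subunit of the channel, had 4.71, 6.72, 3.74 and 4.53 in central retina and 7.27, 7.78 and 5.80 in peripheral retina. The whole eyes had the highest values, 10.3 and 13.5, and the whole retinas had 7.73 and 9.62. Central replicate 2, at 6.72, was the only central library above any peripheral one. The order of the means was whole eye at 11.9 ± 2.30, whole retina at 8.68 ± 1.34, peripheral retina at 6.95 ± 1.03 and central retina at 4.93 ± 1.27 (SD, n = 2, 2, 3 and 4). Between regions the log2 difference was -0.44, with a 95% interval from -0.83 to -0.05, an unadjusted p of 0.0305 and an adjusted p of 0.101 (limma). Without central replicate 2 the adjusted p was 0.0256.

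The ratio of CNGA3 to CNGB3, a measure chosen after the values were seen and given without a test, was between 1.97 and 2.99 in the central libraries and between 0.911 and 1.63 in the peripheral ones. It was 0.563 and 0.938 in the 2 whole retinas and 0.395 and 0.502 in the 2 whole eyes. Each group therefore lay apart from the others except that the higher whole retina was just inside the peripheral range.

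SLC24A2, the exchanger that moves calcium and potassium out of cones and sodium in, also found in retinal ganglion cells and brain, had 27.3, 25.4, 30.0 and 25.7 in central retina. Its peripheral values were 20.5, 13.0 and 14.2, and it had 9.73 and 11.8 in the whole eyes and 11.2 and 10.5 in the whole retinas. The 4 central libraries lay closely together and above all others, and the whole tissues lay below every peripheral library. Central libraries had a mean of 27.1 ± 2.09 (SD, n = 4) and peripheral libraries one of 15.9 ± 4.00 (SD, n = 3), a log2 difference of 0.76 with a standard error of 0.147 (limma, adjusted p = 0.00456). The 9 measured of 11 ganglion cell markers summed to 2194 to 4194 in central retina, 430 to 758 in peripheral retina, 577 to 819 in whole retina and 831 to 903 in whole eye. Their part in the SLC24A2 difference was not tested.

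**Figure D2:**
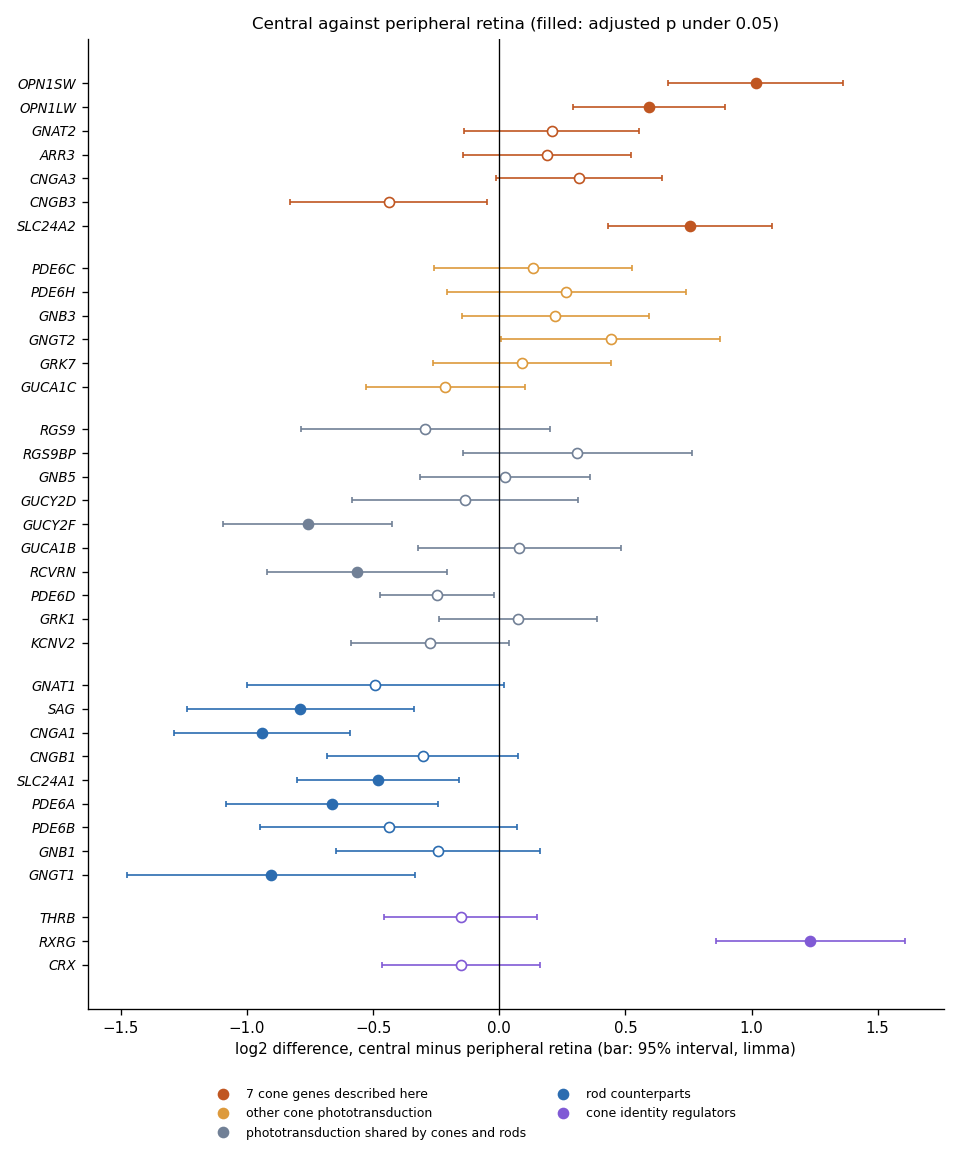
Log2 difference of central minus peripheral retina for the 7 cone genes and the other measured genes of the light response, with limma's 95% interval as a bar and a filled point where the adjusted p is under 0.05. The filled points to the right of 0 are OPN1SW, OPN1LW, SLC24A2 and RXRG, and all 9 rod genes shown lie to the left of 0.

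The cone genes were set beside their rod counterparts within each library. Such a ratio does not depend on a factor common to all genes of a library. It can change under quantile normalization, for which the ratios were not computed. Of 6 ratios given here, 3 were higher in every central library than in every peripheral one. Each of these 3 had an exact two-sided permutation p of 0.0286, the smallest that 4 libraries against 3 can give. The adjusted p was 0.0457 over the 8 pairs planned, and 0.0571, past the threshold no longer, over the 6 pairs given here, so that these calls depend on the pairs counted. Adjusted values below are over the 8 pairs. Because genes may be scaled by their length, only the change of a ratio between libraries is read.

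ARR3 relative to SAG, the rod arrestin, was 31.6 ± 10.4% in the 4 central libraries (mean and SD) and 15.8 ± 4.11% in the 3 peripheral ones. By the mean log2 ratio, from which each fold between ratios is taken, the regions were 1.97-fold apart, although ARR3 alone was not called. Central replicate 2 stood at 47.0% and the other 3 central libraries between 24.9% and 27.9%. The ratio thus separated the regions, while the ARR3 values alone overlapped between them. The log2 difference of central minus peripheral retina was 0.19 for ARR3 and -0.79 for SAG. The part of each gene in the ratio difference was not tested.

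CNGA3 relative to CNGA1, the matching rod channel subunit, was 7.58 ± 0.524% in central and 3.15 ± 0.750% in peripheral retina, 2.45-fold apart. SLC24A2 relative to SLC24A1, the rod exchanger, was 23.7 ± 2.82% and 9.92 ± 2.59%, 2.43-fold apart. GNAT2 relative to GNAT1, rod transducin, was 4.48 ± 1.94% and 2.73 ± 1.09%, and the regions overlapped (exact permutation p = 0.229, adjusted 0.261). CNGB3 relative to CNGB1 was 4.23 ± 2.06% and 4.67 ± 1.31%, the only one of the 6 pairs with its lower mean in central retina, and it overlapped (exact permutation p = 0.657, adjusted 0.657).

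The ratio of the 2 cone opsins was also compared. OPN1SW was 48.5%, 30.1%, 45.1% and 38.6% of OPN1LW in the central libraries and 23.9%, 34.7% and 31.4% in the peripheral ones. These ranges overlapped (exact permutation p = 0.143, adjusted 0.190), so the larger fold of OPN1SW than of OPN1LW between the regions was not separated from the spread. The ratio was 20.4% and 15.0% in the 2 whole eyes and 15.5% and 17.9% in the 2 whole retinas, below every regional library.

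**Figure D3:**
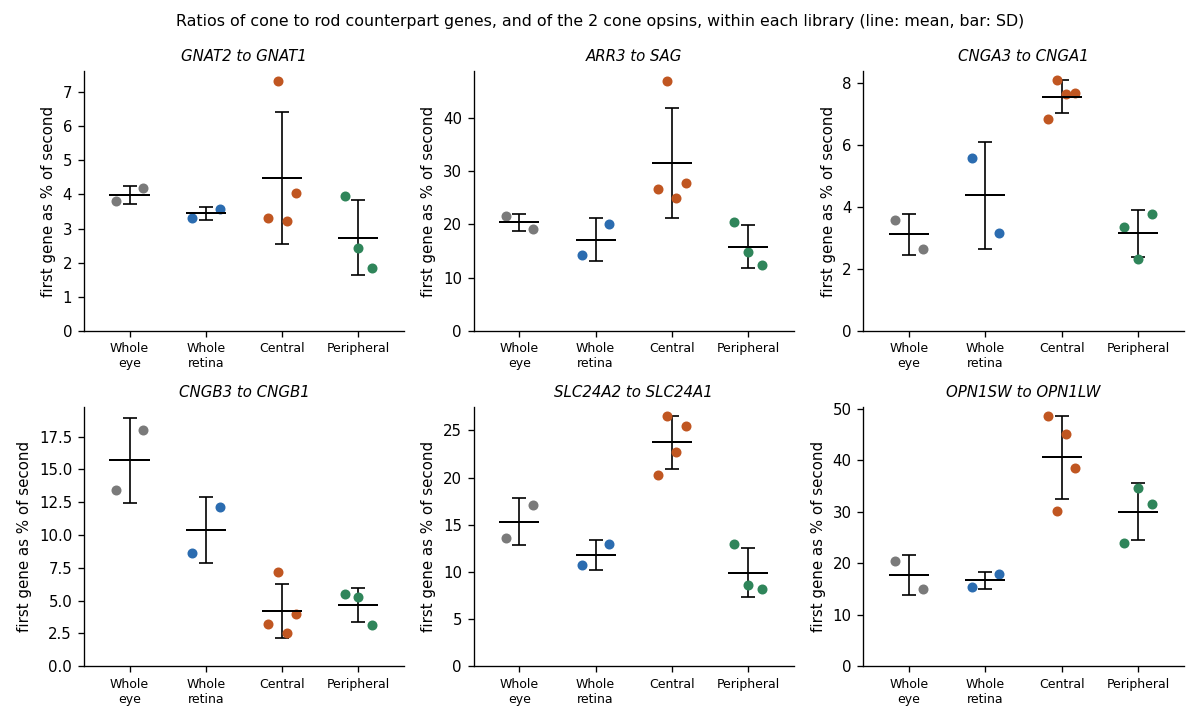
Each of the 6 gene ratios in each of the 11 libraries, as a percentage of the second gene's value on a linear axis from 0, with points for libraries, a line for the group mean and a bar for the SD. Central libraries lie above peripheral ones in 3 ratios and overlap them in GNAT2 to GNAT1, CNGB3 to CNGB1 and OPN1SW to OPN1LW.

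Other genes of the light response were taken from lists of known members. Of 7 other cone genes, 6 were measured (OPN1MW was not analysed here). Between the regions 0 of 6 passed in either direction (limma), where 12.5% of all genes were called higher and 8.76% lower. At an unadjusted p under 0.05, 1 was higher, GNGT2, and 0 were lower, where 18.9% and 16.8% of all genes were. GNGT2, the cone transducin gamma subunit, had a mean of 165 ± 30.7 in the central libraries (SD, n = 4) and of 122 ± 23.9 in the peripheral ones (SD, n = 3), with a log2 difference of 0.44 and an adjusted p of 0.135. PDE6H, the inhibitory subunit of the cone phosphodiesterase, had 926 ± 220.0 and 764 ± 142 in the same order. GUCA1C went the other way, with 1148 ± 136 and 1332 ± 181 and a log2 difference of -0.21 (limma, adjusted p = 0.310). PDE6H, GNB3, PDE6C and GRK7 differed by 0.27, 0.22, 0.13 and 0.09. The median log2 difference of the 6 was 0.18.

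Of 9 rod counterparts measured, 5 were lower in central retina and 0 were higher, where 8.76% and 12.5% of all genes were. The counts at an unadjusted p under 0.05 were the same, where 16.8% and 18.9% of all genes passed, and the log2 difference was below 0 for all 9. The median was -0.49. CNGA1 had means of 145 ± 18.1 in central and 278 ± 27.9 in peripheral retina (SD, n = 4 and 3), a log2 difference of -0.94 (limma, adjusted p = 0.00187). SAG differed by -0.79 with an adjusted p of 0.0202, GNGT1, the rod transducin gamma subunit, by -0.91 with 0.0305, PDE6A, a catalytic subunit of the rod phosphodiesterase, by -0.66 with 0.0316, and SLC24A1 by -0.48 with 0.0383. In each of the 3 ratios that separated the regions the rod gene was called, while of their cone genes SLC24A2 alone was. The 7 rod markers summed to 5283 to 8429 over the central libraries and 8955 to 13041 over the peripheral ones, and their part in the ratios was not tested. The SAG, GNGT1, PDE6A and SLC24A1 calls were lost in 3, 6, 7 and 5 alternative analyses and the CNGA1 call in 0.

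Of 12 genes that serve both photoreceptor types, 10 were measured. Of these, 0 were higher and 2 were lower in central retina, where 12.5% and 8.76% of all genes were. Their median log2 difference was -0.19. The 2 were the guanylate cyclase GUCY2F, at -0.76 (limma, adjusted p = 0.00527), and RCVRN, the calcium sensor recoverin, at -0.56 (adjusted p = 0.0310). The RCVRN call was lost in 9 alternatives. Among 3 measured of 4 cone identity regulators, RXRG, a nuclear receptor that acts in cone opsin patterning, was at 68.0 ± 14.0 in the central libraries (SD, n = 4) and 28.3 ± 5.62 in the peripheral ones (SD, n = 3), a log2 difference of 1.23 (limma, adjusted p = 0.000573). THRB, the thyroid hormone receptor needed for long- and middle-wavelength cones, and CRX, a photoreceptor transcription factor, each differed by -0.15, with adjusted p-values of 0.457 and 0.475.

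Whole retina and whole eye were compared to see whether the cone genes were set apart by the other tissues of the eye. None of the 7 cone genes passed the test (0 of 7, limma), where 2.27% of all genes did in either direction, and 0 passed an unadjusted p of 0.05. The log2 differences ran from -0.41 for CNGB3, with a 95% interval from -0.92 to 0.10, to 0.25 for GNAT2. The SLC24A2 means were 10.9 and 10.8, a log2 difference of 0.01. With 2 libraries a group the intervals were wide, and differences of this size were not detectable. ARR3 was 17.2 ± 4.12% of SAG in the retinas and 20.4 ± 1.67% in the eyes (SD, n = 2 each).

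Central and peripheral retina were each compared with whole retina, and these comparisons share the same 2 whole retina libraries. Central retina had 5 of the 7 genes higher (OPN1SW, GNAT2, ARR3, CNGA3 and SLC24A2) and 1 lower (CNGB3), where 18.9% and 29.7% of all genes were called higher and lower. OPN1SW was 2.80-fold and SLC24A2 2.50-fold above whole retina in the ratio of means, with log2 differences of 1.46 and 1.24 (limma, adjusted p = 5.14e-05 and 0.000104). CNGA3 differed by 0.71 (adjusted p = 0.00508), ARR3 by 0.66 (0.00790) and GNAT2 by 0.50 (0.0366). CNGB3 differed by -0.72 (adjusted p = 0.0115), and OPN1LW by 0.21, with a 95% interval from -0.13 to 0.56 (adjusted p = 0.284).

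These calls rested on 2 whole retinas. Without whole retina replicate 2, 3 of the 7 genes were called; the GNAT2, CNGA3 and CNGB3 calls were lost, and the ARR3 call was lost without whole retina replicate 1, with an adjusted p of 0.112. The GNAT2 call was also lost without central replicate 1 or 2, and the CNGB3 call under quantile normalization (adjusted p = 0.0502), which added OPN1LW. Summed pigment epithelium and lens markers were also lower in central than in whole retina, as given above. The 7 Müller glia markers summed to 1062 to 1361 in central retina, 2108 to 2462 in peripheral retina, 3519 to 3673 in whole retina and 3763 to 3965 in whole eye. Between peripheral and whole retina these markers disagreed. VIM (means 458 and 1182), CRYAB (95.3 and 550), RLBP1 (444 and 545) and GLUL (696 and 751) were lower in peripheral retina. WIF1 (489 and 460), SLC1A3 (114 and 84.4) and AQP4 (35.4 and 22.9) were higher there. The part of these tissues and cells in the differences was not tested.

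Peripheral retina had 0 of the 7 genes called against whole retina (limma), where 9.83% of all genes were called higher and 24.3% lower, and at an unadjusted p under 0.05 there were 3 higher and 1 lower, where 14.7% and 29.1% of all genes were. These 4 genes had log2 differences of 0.49 for SLC24A2 (adjusted p = 0.0535), 0.48 for ARR3 (0.0641), 0.45 for OPN1SW (0.0920) and -0.38 for OPN1LW (0.0974). Scaling mattered here. Under quantile normalization 4 of the 7 genes were called and the OPN1LW difference became 0.10, and with libraries scaled to 1 median 5 were called. The share of all genes called in either direction also rose, from 34.2% to 43.3% and 38.7%. These scalings moved the median log2 difference of all genes from -0.08 to 0.16 and 0.09, and that of central against whole retina from -0.10 to 0.12 and 0.06. Against whole eye the shift was from -0.17 to 0.10 and 0.01 in central retina, and from -0.14 to 0.14 and 0.05 in peripheral retina.

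**Figure D4:**
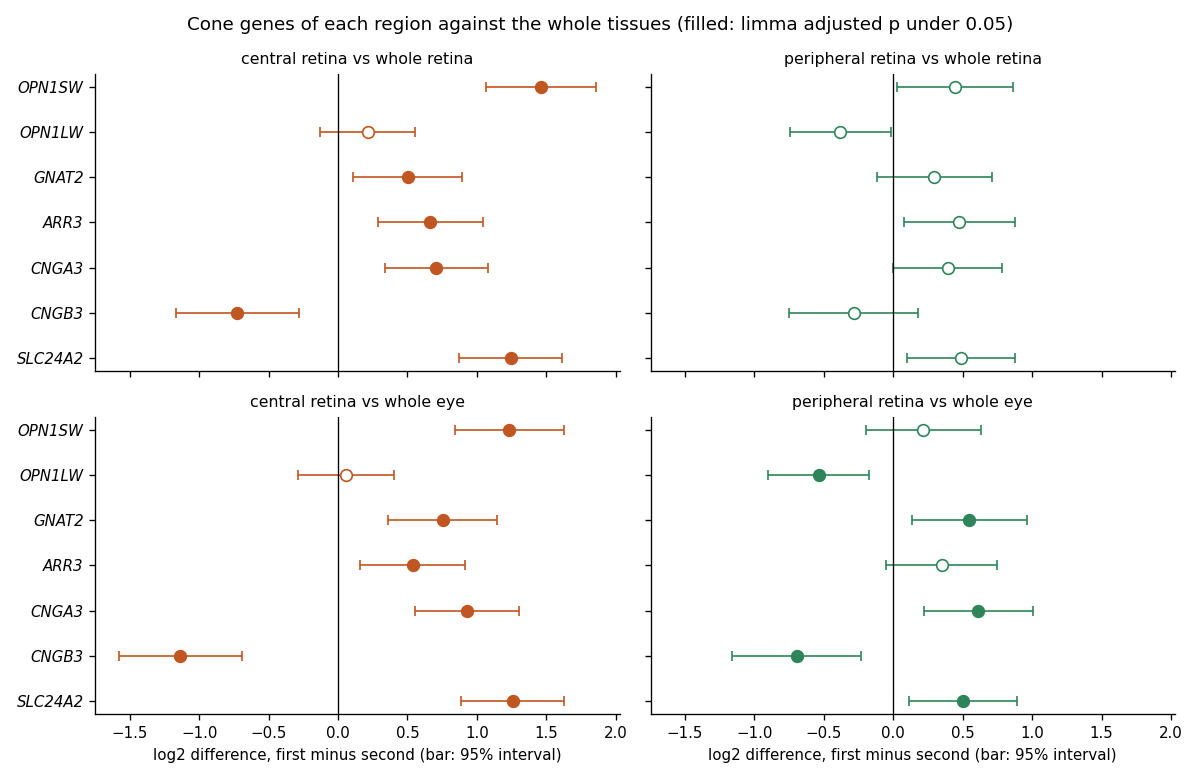
Log2 differences of central and of peripheral retina from whole retina and from whole eye for the 7 cone genes, with limma's 95% interval as a bar and a filled point where the adjusted p is under 0.05. OPN1SW and SLC24A2 lie farthest above 0 in central retina, CNGB3 lies below 0 in all 4 comparisons, and no point is filled for peripheral against whole retina.

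Against whole eye, central retina had the same count, 5 of 7 higher and 1 lower, where 21.0% and 34.2% of all genes were called. SLC24A2 differed by 1.26 on the log2 scale (limma, adjusted p = 8.31e-05), OPN1SW by 1.23 (0.000159), CNGA3 by 0.93 (0.000825), GNAT2 by 0.75 (0.00426) and ARR3 by 0.54 (0.0207). CNGB3 was lower by a log2 difference of -1.13, with a 95% interval from -1.58 to -0.69 (adjusted p = 0.000664), a level of 4.93 against 11.9. OPN1LW differed by 0.06 (adjusted p = 0.773). Under quantile normalization all 7 genes were called, where 56.4% of all genes were called in either direction. Without whole eye replicate 2, which left 1 whole eye, the ARR3 difference fell to 0.40 and ARR3 did not keep its call. The comparisons of the regions with whole eye share the same 2 whole eye libraries.

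In peripheral retina against whole eye, 3 of the 7 genes were higher, where 12.3% of all genes were, and 2 were lower, where 27.6% were. CNGA3 differed by 0.61 (limma, adjusted p = 0.0185), GNAT2 by 0.55 (0.0383) and SLC24A2 by 0.50 (0.0421). CNGB3 differed by -0.70 (adjusted p = 0.0224) and OPN1LW by -0.54 (0.0230). All 5 calls were lost without whole eye replicate 2, all but CNGB3 without whole eye replicate 1, and each of the 5 without 1 or another of the peripheral libraries. Under quantile normalization the OPN1LW difference became 0.04, the CNGB3 call was lost (adjusted p = 0.0549), and OPN1SW, at 0.49, and ARR3, at 0.72 (adjusted p = 0.00602), were called. With libraries scaled to 1 median the OPN1LW and CNGB3 calls were lost and ARR3 was called at 0.56. The whole eyes held 3273 to 3586 of summed lens markers and 1989 to 2215 of summed pigment epithelium markers, and the part of these tissues in the differences was not tested.

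**Figure D5:**
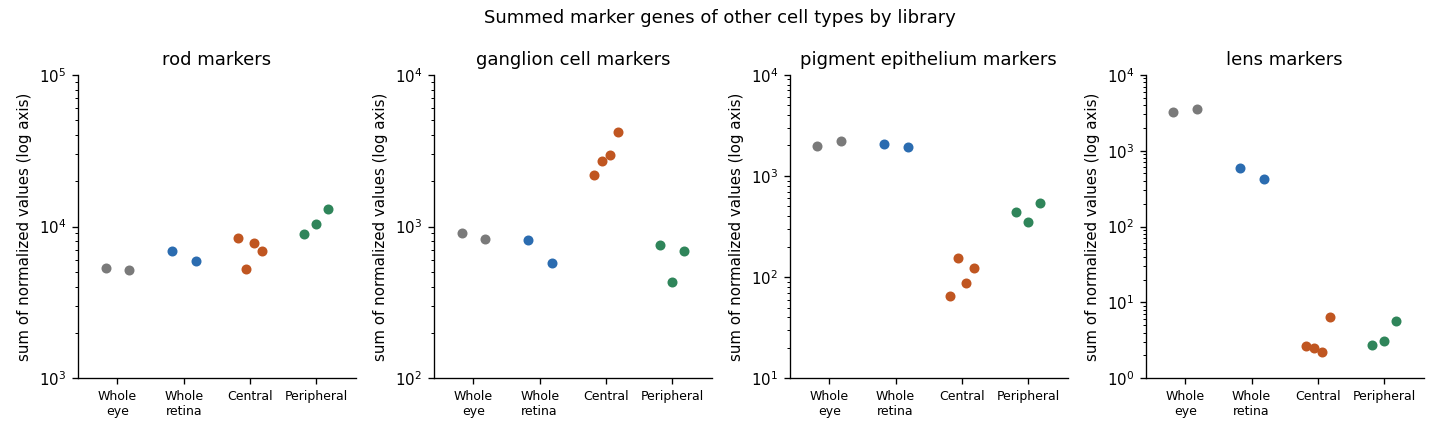
Summed values of measured marker genes of rods, ganglion cells, pigment epithelium and lens in each of the 11 libraries by group, on log axes with a separate range in each panel. Ganglion cell markers are highest in the 4 central libraries, and pigment epithelium and lens markers are far higher in whole eye and whole retina than in the regional libraries.

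Genes with the most similar values were found for each cone gene as a description over the 11 libraries, which share 4 tissue groups, among 7149 genes. The closest to OPN1SW were LOC722330 (Pearson r = 0.973) and FRAT2 (0.962), and to OPN1LW they were PGK1 (0.960) and ENDOD1 (0.940). GNAT2 lay closest to another of the 7 cone genes, CNGA3 (0.929), and then to LRRC8B (0.917). The closest to ARR3 were BEX2 (0.945) and TMEM215 (0.936), to CNGA3 DPYSL5 (0.950) and TMEM170B (0.949), and to SLC24A2 RAB11FIP4 (0.987) and KCNG4 (0.983). CNGB3 followed CCT6A (0.991) and EXTL2 (0.983), and its r with the other cone genes ran from -0.826 to -0.006. Within the 7 regional libraries alone that range was -0.752 to 0.0616. There r fell to 0.764 for CNGA3 with GNAT2, to 0.767 for BEX2 and 0.633 for TMEM215 with ARR3, and was 0.994 for CCT6A with CNGB3.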

How the data were processed

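Each table holds 1 library, with 1 signal value per gene that the authors had normalized before they deposited it, per the file headers. How is not stated. The aligner GSNAP and the read counter HTSeq are named in the submitters' processing notes without versions, and the genome build is not given in the sources used here. Of 13083 entries, 27 without a value and 61 exact duplicates were dropped. The tissue label of each library gave its group. limma 3.58.1 (R 4.3.3) was fitted to log2(value + 1) of 11 libraries in 4 groups, with a variance trend, for the 11933 genes whose mean reached 1 in any group. Fold changes on this scale understate changes of low genes. Tests are two-sided, adjusted by Benjamini and Hochberg over all genes within each of 6 comparisons, with a threshold of 0.05. Log2 gene ratios were compared by exact permutation over libraries with numpy 2.4.6. 1 planned gene and its 2 ratios are not reported here. The smallest p such a test can give is 0.0286; the plan had wrongly put it at double that. The 7 cone genes are all named, as are measured genes of the lists for other cone, shared, rod and cone identity genes, by choice, and the 2 genes most correlated with each cone gene among those whose mean reached 10 in any group. The members and lists were chosen with earlier results of these data known. The analysis was tested on simulated data. Alternatives changed scaling, pseudocount, filter, variance trend, replicate block, groups fitted and the libraries included.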

Additional observations from a re-analysis of the deposited data

Results flagged for a closer look

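In the ratio of ARR3 to SAG, central retina replicate 2 stood at 47.0%, while the other 3 central libraries lay between 24.9% and 27.9%. The gap was 0.867 of the range, above Dixon's 95% critical value for 4 libraries. It was the 1 group of values to stand out among 41 checked, and chance alone gives about 1 in 20. The same library had the lowest SAG value of the central libraries, 1673, and the highest ARR3 value, 787.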

How the results depend on the processing

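Of 609 results for single cone genes under alternatives, 552 kept their direction and side of the threshold, 32 lost the call, 18 gained one and 7 changed sign. OPN1SW and SLC24A2 kept their central against peripheral calls in every alternative run, with adjusted p at most 0.0115 and 0.0282. With 1 library left out, 2 to 4 cone genes were called in central against peripheral retina, 3 to 6 in central against whole retina, 0 to 1 in peripheral against whole retina, and 0 to 4 in peripheral retina against whole eye (3 with only those 2 groups). Signs turned for small differences. Leaving out 1 library gave ranges of -0.00108 to 0.24 for PDE6C, -0.0677 to 0.0698 for GNB5 (-0.16 under quantile normalization), -0.31 to 0.0173 for GUCY2D, -0.000468 to 0.14 for GUCA1B and -0.0372 to 0.16 for GRK1 (-0.0397 under quantile normalization). In whole retina against whole eye, leaving out 1 library gave -0.35 to 0.10 for ARR3 and -0.11 to 0.14 for SLC24A2. OPN1LW in central retina against whole eye ran from -0.00371 to 0.15 with 1 library left out. In peripheral retina under quantile normalization it became 0.0359 against whole eye and 0.10 against whole retina, where 4 cone genes were called, and 5 were with libraries scaled to 1 median. Without 1 library the log2 ratio differences were 0.77 to 1.18 for ARR3 to SAG, 1.09 to 1.44 for CNGA3 to CNGA1 and 1.16 to 1.49 for SLC24A2 to SLC24A1, in designs too small to pass. Deviations from the group means had r = -0.138, -0.0609 and 0.357 between same-numbered central and peripheral libraries. They had r = 0.363 for central 1 with peripheral 2 and 0.347 for central 2 with peripheral 1. All remaining pairs lay between -0.243 and 0.225. A pairing of libraries under different numbers was not tested, and the main tests treat libraries as unpaired. Adjusted over the 6 pairs given here, a choice added after seeing the data, these 3 ratio differences, 0.98, 1.29 and 1.28, have an adjusted exact permutation p of 0.0571. Between same-numbered libraries, without central replicate 4, the 3 ratio differences were 1.02, 1.29 and 1.24. Their exact sign-flip permutation p was 0.25, the smallest that 3 pairs can give, so it cannot decide on them. With the replicate block in limma, 4 cone genes were called in central against peripheral retina, CNGB3 among them, and 4 in peripheral retina against whole eye. With only the 7168 genes of a mean of at least 10 tested, there were 102, 3675, 2524, 4290 and 3137 called genes, against 271, 5806, 4077, 6592 and 4767 of 11933, in whole retina against whole eye, central and peripheral against whole retina, and central and peripheral against whole eye, and the share called went from 2.3% to 1.4%, 48.7% to 51.3%, 34.2% to 35.2%, 55.2% to 59.8% and 39.9% to 43.8%. Whole retina against whole eye gave 163 genes with only those groups and 784 without whole retina replicate 2. Central against peripheral retina gave 1654 without central replicate 4 and 1328 without peripheral replicate 2, against 2538. Depth is unknown, so the counting error of single genes cannot be given, and the cause of these shifts was not tested.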
